A study of Mus musculus with 9 samples.

Results

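The Kruppel-like factor genes followed here were Klf2, Klf3, Klf4, Klf5, Klf6, Klf7, Klf8, Klf9, Klf10 and Klf15, that is 10 of the 17 Klf genes and of the 23337 genes in the count table. They were selected on their counts in all 9 libraries, after earlier results of these data were known. Therefore, their levels and fold changes are given as a description and without a p-value. Which of them passed a threshold is stated too, but this is circular for genes so selected and is not read as a result. RNA was sequenced from immortalised mouse embryonic fibroblasts (MEFs) on a C57BL/6 x 129 background that carry a knockout (k/o) of Cebpb, the gene of the transcription factor C/EBPβ. The cells were stably transfected with the empty vector (EV), with a vector for the long isoform C/EBPβ-LAP or with a vector for the short isoform C/EBPβ-LIP, both of rat origin, and were kept under Zeocin selection. LIP lacks the transactivation domains of LAP but keeps the DNA-binding domain. Each group had 3 libraries, numbered 1 to 3. Endogenous C/EBPβ was missing in all groups, EV included, so the comparisons ask what each isoform changes on a background without the other. The sources used here do not say whether a line was a clone or a pool, or whether libraries of a group came from separate cultures. Thus, p-values measure only the spread between these libraries.

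Kruppel-like factors are zinc finger proteins that bind CACCC and GC-rich boxes, which they share with the related Sp factors, and they act as activators or repressors depending on the partners bound by their amino-terminal parts. In the fibroblast and adipocyte lineage several of them act around C/EBPβ. KLF4 acts upstream of Cebpb early in adipogenesis, KLF5 acts downstream of C/EBPβ and C/EBPδ, KLF6, KLF9 and KLF15 promote adipogenesis, and KLF2, KLF3 and KLF7 hold it back. KLF8 is a CtBP-binding factor known from focal adhesion signalling, invasion and repression of E-cadherin.

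The total count per library lay between 24839139 and 33522082, so 3 counts, the floor used here, stood for 0.0895 to 0.121 CPM, the unit of counts scaled to library size that is used for levels here. Floors and intervals cover counting error only. Replicate libraries had a Pearson's r of 0.966 to 0.994 over 11535 genes, which are not independent replicates, with LIP at the low end. The summed level of 12 fibroblast markers was 36500 to 41100 CPM in EV, 30600 to 44800 CPM in LAP and 17900 to 31200 CPM in LIP, and 11 of the 12 had a negative log2 fold change in LIP against EV, 7 of them with an unadjusted p under 0.05 and 0 past the adjusted threshold of edgeR's quasi-likelihood test. Of all genes tested, 46.0% were negative and 6.75% lower with an unadjusted p under 0.05. The sum rests mostly on the matrix genes Fn1, Col1a1, Col1a2 and Col3a1, with means of 8100, 6910, 6160 and 4890 CPM. Of the markers that are not matrix genes, Vim and S100a4 had log2 fold changes of -0.07 ± 0.23 and 0.02 ± 0.25 in LIP against EV. Ddr2, Thy1, Fap, Pdgfra and Pdgfrb had -0.46 ± 0.25, -1.08 ± 0.41, -1.3 ± 0.49, -1.38 ± 0.42 and -1.74 ± 0.53 there. The markers thus differed, and the sum is not used here as a measure of fibroblast content. Whether that content differed between the groups was not tested. Within this list, the receptor genes Pdgfra and Pdgfrb had a mean of 1.82 and 0.807 CPM. The keratin genes Krt8 and Krt14 had a mean of 532 and 162 CPM, whereas the epithelial marker Epcam had a mean of 0.225 CPM. Pecam1, Ptprc, Plin1 and Myod1, defining genes of endothelial, blood, fat and muscle cells, were at 0 counts. Other genes of the same lists were counted in every library at low levels, with a mean of 4.19 CPM for Cd68, 1.87 CPM for Kdr, 1.49 CPM for Fabp4, 1.29 CPM for Des and 0.597 CPM for Tek. The widely expressed genes Ctbp1 and Myc were also listed at 0 in all 9 libraries, so a 0 in this table does not show that a gene was silent. In these bulk samples, fewer cells of a type and less RNA per cell cannot be told apart.

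The results turn on Klf8 and, at far lower counts, on Klf15, and their promoter sequences are shown for that reason. Klf8 lies on the plus strand at chrX:153225339-153398925 and Klf15 on the plus strand at chr6:90461043-90491803 (RefSeq, GRCm38.p6). RefSeq's table holds 2 promoters for Klf8, both within the span of the gene, and 1 for Klf15, each with 250 bases before and 50 bases after the transcription start. Capitals mark CACCC or, on the other strand, GGGTG, the core letters bound by Kruppel-like factors.
Klf8, chrX:153237498-153237797, plus strand: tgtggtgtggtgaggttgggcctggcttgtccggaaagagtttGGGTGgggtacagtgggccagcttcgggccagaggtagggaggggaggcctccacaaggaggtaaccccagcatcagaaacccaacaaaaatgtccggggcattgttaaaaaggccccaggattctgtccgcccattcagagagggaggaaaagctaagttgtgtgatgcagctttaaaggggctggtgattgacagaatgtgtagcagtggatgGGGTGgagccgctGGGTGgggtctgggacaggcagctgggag
Klf8, chrX:153359363-153359662, plus strand: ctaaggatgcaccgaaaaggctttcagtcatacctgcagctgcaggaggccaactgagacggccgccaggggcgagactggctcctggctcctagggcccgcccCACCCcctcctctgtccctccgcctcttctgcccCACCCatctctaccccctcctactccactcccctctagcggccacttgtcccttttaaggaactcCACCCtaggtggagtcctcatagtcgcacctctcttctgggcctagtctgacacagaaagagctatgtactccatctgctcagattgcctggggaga
Klf15, chr6:90462326-90462625, plus strand: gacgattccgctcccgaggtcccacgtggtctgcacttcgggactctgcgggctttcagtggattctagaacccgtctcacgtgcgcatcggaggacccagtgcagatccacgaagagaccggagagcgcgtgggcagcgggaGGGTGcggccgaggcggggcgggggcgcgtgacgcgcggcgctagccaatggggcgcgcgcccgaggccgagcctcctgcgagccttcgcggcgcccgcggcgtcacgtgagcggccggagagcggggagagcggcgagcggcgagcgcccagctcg
Each Klf8 promoter held 3 CACCC cores and that of Klf15 held 1. The first Klf8 promoter had a GC content of 57.3%, the second 60.0% and that of Klf15 73.3%, against a median of 52.7% over all 32851 promoters of the table. These values describe the sequence only.

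Promoters were found for 8 of the 10 Klf genes, 9 in all, but not for Klf5 and Klf10. CACCC was present on either strand in 7 of these 9 promoters (77.8%) and in 57.5% of all promoters, the exceptions being Klf4 and Klf6. The GC box GGGCGG, read on both strands, was present in 8 of 9 (88.9%), all except Klf9, and in 35.7% of all promoters. CCAAT was present in 3 of 9 (33.3%), in the promoters of Klf15, Klf6 and Klf9, and in 37.4% of all. The C/EBP-type word TTGCNNAA was present in 0 of 9 and in 10.8% of all. Words can share bases where they meet, as GGGTG and GGGCGG do at their guanines, and the counts of GC boxes follow the GC content. A word that is missing says only that these letters are not in this window.

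The levels of the 10 genes spanned more than 2 orders of magnitude per length. In EV, Klf6 was highest with 46.2 ± 6.26 CPM per kb of exon, followed by Klf4 with 26.3 ± 7.64, Klf10 with 19.3 ± 1.24, Klf2 with 6.62 ± 1.51, Klf3 with 6.44 ± 0.694 and Klf9 with 5.99 ± 0.37 (SD, n = 3). At the low end, Klf5 had 2.42 ± 0.0839, Klf7 0.736 ± 0.117, Klf8 0.129 ± 0.0507 and Klf15 0.0827 ± 0.0638 CPM per kb (SD, n = 3). The ranges of the neighbours Klf2 and Klf3, Klf3 and Klf9, and Klf8 and Klf15 overlapped in EV. In LAP, Klf4 and Klf10 overlapped as well, while Klf8 stood apart from Klf15. In LIP, Klf8 reached 0.648 ± 0.3 CPM per kb and overlapped Klf7 with 0.738 ± 0.307, while Klf15 was at 0.0116 ± 0.02 (SD, n = 3).

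**Figure D1:**
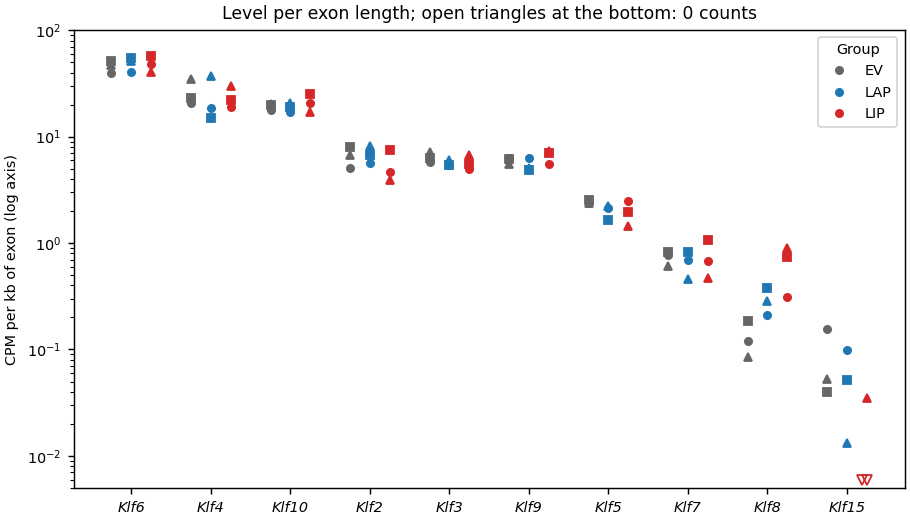
Level of each Klf gene in each library in CPM per kb of exon on a log axis, ordered by the mean in EV. Colours mark EV (grey), LAP (blue) and LIP (red), circles, squares and triangles mark libraries 1, 2 and 3, and open triangles at the bottom mark the 2 LIP libraries without a Klf15 count. Klf6 is highest in all groups, and Klf8 has a mean of 0.129 in EV and 0.648 in LIP, below Klf7 and above Klf15 in each group.

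Klf8 was higher in LIP than in EV. In EV it had 20, 26 and 15 counts in libraries 1 to 3, in LAP 36, 55 and 40, and in LIP 40, 117 and 144. LIP library 1 had the fewest counts of its group and lay within the range of LAP, whereas LIP libraries 2 and 3 lay above every other library. In normalised levels this was 0.674 ± 0.264 CPM in EV, 1.52 ± 0.435 CPM in LAP and 3.37 ± 1.56 CPM in LIP (SD, n = 3). All 3 EV libraries lay below all LAP and all LIP libraries, while LAP and LIP overlapped. The summed fibroblast markers were 31200, 17900 and 30000 CPM in LIP libraries 1 to 3. The LIP library with the fewest Klf8 counts thus had the highest sum, and that with the most had nearly the same. Single markers did not all follow the sum. From LIP library 1 to 3, Thy1 was at 230, 91.6 and 53.8 CPM and Fap at 3.06, 1.11 and 0.711 CPM. Pdgfrb and Col5a1 also fell from library to library, and the other markers of the list did not. The part of these markers in the level of Klf8 was not tested.

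On the log2 scale, the fold change of Klf8 was 2.34 ± 0.43 for LIP against EV, 1.17 ± 0.35 for LAP against EV and 1.18 ± 0.39 for LIP against LAP (SE, 3 libraries per group). The comparisons share libraries. In same-numbered libraries, the ratio of LIP to EV was 2.62, 4.0 and 10.6, and that of LAP to EV 1.78, 2.06 and 3.37. That of LIP to LAP was 1.47, 1.94 and 3.14. The ratios over EV would be above 1 in any pairing, since every EV library lay below every LAP and LIP library. In LIP against EV the library numbers were not found to pair the samples. The summed counts differed by a ratio of 5.51 (95% exact interval 4.17 to 7.38) for LIP over EV, 2.23 (1.63 to 3.07) for LAP over EV and 2.48 (2.01 to 3.06) for LIP over LAP, where the intervals cover counting error only and not the spread between libraries.

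Of the 10 Klf genes, 1 (Klf8) passed the adjusted p of 0.05 in LIP against EV by edgeR's quasi-likelihood test, beside 0.396% of all 18203 genes tested. In LAP against EV it was 0 of 10, beside 0.0606% of all genes, and in LIP against LAP 0 of 10, beside 1.05%. At an unadjusted p under 0.05, 1 gene was higher (Klf8) and 1 lower (Klf15) in LIP against EV, and 1 was higher (Klf8) in each of the other comparisons. Of all genes tested, 4.23% were higher and 6.75% lower at this threshold in LIP against EV, 1.93% and 1.34% in LAP against EV, and 3.3% and 5.98% in LIP against LAP. The unadjusted counts of every list are to be read against these shares. DESeq2 and the edgeR exact test gave the same counts, 1 for LIP against EV and 0 for both others. With the replicate number as a block, the call was 0 of 10 in LAP against EV, beside 0.297% of all genes, and 1 of 10 (Klf8, log2 fold change 1.09) in LIP against LAP, beside 6.51% of all genes. Because the genes were selected on these libraries, these counts are not read as a result. The Klf8 call in LIP against EV was lost without EV library 1, 2 or 3 or LIP library 2, while the log2 fold change without each library in turn was 2.05 to 2.67.

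Groups that do not overlap were seen for 2 of 10 Klf genes in LIP against EV, Klf8 (all higher) and Klf15 (all lower), beside 15.6% of all genes. In LAP against EV these were Klf8 (all higher) and Klf5 (all lower), beside 7.57% of all genes, and in LIP against LAP 0 of 10, beside 12.8%. The median log2 fold change of the 10 genes was -0.08 in LIP against EV, -0.16 in LAP against EV and 0.03 in LIP against LAP, whereas that of all genes was 0.04, 0.02 and 0.02.

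**Figure D2:**
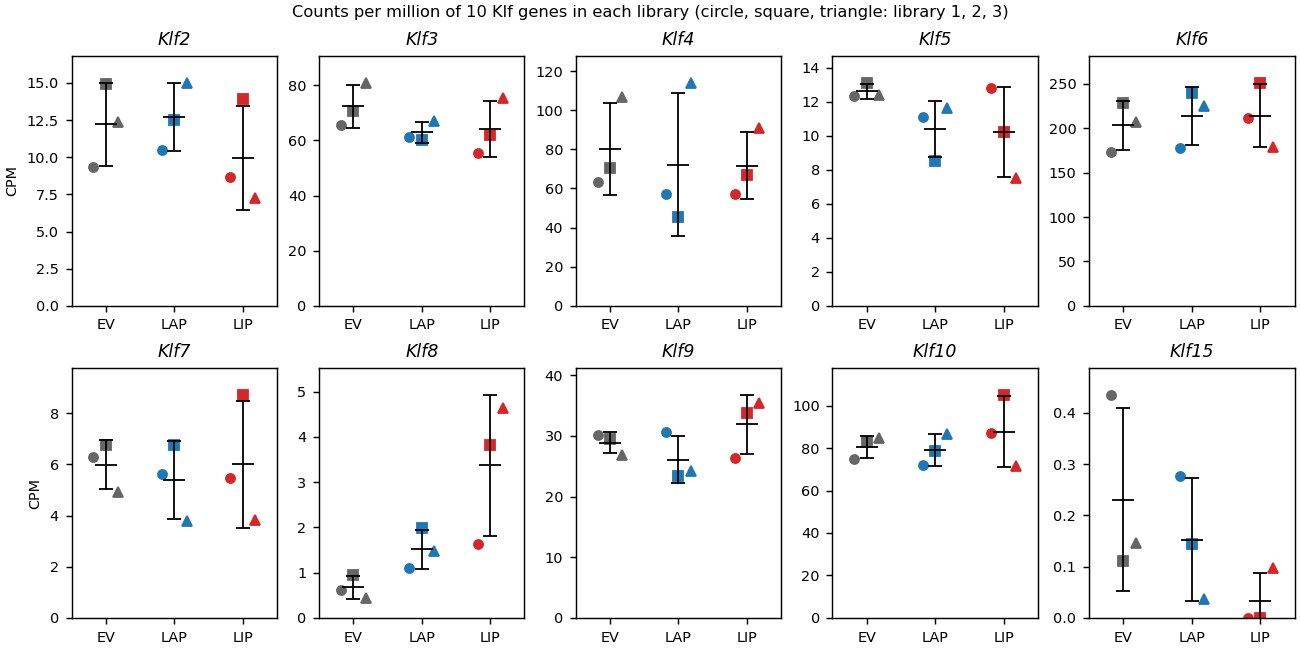
Level of each of the 10 Klf genes in CPM, with linear axes that start at 0 and differ between panels. Circles, squares and triangles are libraries 1, 2 and 3 of EV, LAP and LIP, and bars are the mean and SD. Klf8 has a mean of 0.674 CPM in EV and 3.37 CPM in LIP, with LIP library 1 at 1.63 CPM, and the other genes overlap between EV and LIP except Klf15.

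Klf8 was also read beside its paralogs. Of the 5203 words of 50 bases, the read length, in its transcripts, 0 occurred in another gene of the annotation, and 0 were shared between any of the Klf genes. The table lists 2 curated RefSeq transcripts for Klf8, which the counts do not separate. The nearest genes on chromosome X that reached a mean of 20 counts did not pass the test. In LIP against EV, Mageh1 and Rragb before Klf8 had log2 fold changes of -0.97 ± 0.37 (edgeR adjusted p = 0.357) and 0.15 ± 0.27 (adjusted p = 0.861), and Ubqln2 and Sat1 after it 0.08 ± 0.19 (adjusted p = 0.905) and -0.26 ± 0.23 (adjusted p = 0.706). The same held for these 4 genes in the other comparisons.

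Klf15, a metabolic regulator of glucose and amino acid handling that promotes adipogenesis, was close to the floor in all groups. It had 14, 3 and 5 counts in EV, 9, 4 and 1 in LAP and 0, 0 and 3 in LIP. The EV and LIP libraries did not overlap in CPM, but EV library 2 and LIP library 3 had the same 3 counts and differed only by library size. The summed counts of 3 in LIP and 22 in EV gave a ratio of LIP to EV of 0.152 (95% exact interval 0.0292 to 0.507), that is 6.57-fold (1.97 to 34.3) lower. For LAP over EV the ratio was 0.66 (0.312 to 1.35), and for LIP over LAP 0.231 (0.0425 to 0.827). The fitted log2 fold change of -2.62 ± 1.01 for LIP against EV was -1.79 without EV library 1 and -5.82 without LIP library 3, so its size rests on single libraries with few counts.

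Klf4, a regulator of growth arrest and pluripotency, had 2035, 1909 and 3645 counts in EV, 1851, 1266 and 3079 in LAP and 1406, 2040 and 2810 in LIP. Library 3 was highest in each group, with 107 CPM in EV, 114 CPM in LAP and 90.8 CPM in LIP, whereas libraries 1 and 2 lay between 45.5 and 70.4 CPM. The group means were 80.2 ± 23.3 CPM in EV, 72.2 ± 36.6 CPM in LAP and 71.7 ± 17.2 CPM in LIP (SD, n = 3). The log2 fold change was -0.16 ± 0.22 in LIP against EV, -0.16 ± 0.29 in LAP against EV and 0 ± 0.29 in LIP against LAP (SE). Without EV library 3 the log2 fold change was 0.1 both in LIP and in LAP against EV. Without LAP library 3 it was -0.66 in LAP against EV and 0.54 in LIP against LAP. Leaving out library 3 of a single group removes a high value from that group only. In same-numbered libraries, the ratio of LIP to EV was 0.907, 0.949 and 0.85, and that of LAP to EV 0.902, 0.646 and 1.07.

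The immediate early genes Fos and Egr1, which respond within minutes to serum and stress, were high in 2 of the libraries in which Klf4 was high. Egr1 is named here after its values were seen. Other genes of the early list, such as Fosb, Egr2 and Ier2, were also highest of their group in EV library 3 and LAP library 3. Jun, Fosl1, Atf3 and Srf were not highest in either. Egr1 was at 248 CPM in EV library 3 and 183 CPM in LAP library 3, against 21.3 to 35.3 CPM in the other EV and LAP libraries. Fos was at 25.9 and 16.1 CPM in the same libraries, against 1.92 to 3.11 CPM in the others of these groups. In LIP library 3, where Klf4 was 90.8 CPM, Egr1 was 70.3 CPM and Fos 2.68 CPM, so Fos lay within the range of the remaining libraries. Of Klf2, Klf6 and Klf10, which also belong to the rapidly induced genes, Klf10 alone was highest in library 3 of both EV and LAP, with 84.5 and 86.7 CPM against 71.9 to 82.8 CPM in the other EV and LAP libraries. The part of whatever set Fos and Egr1 apart in the level of Klf4 was not tested.

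**Figure D3:**
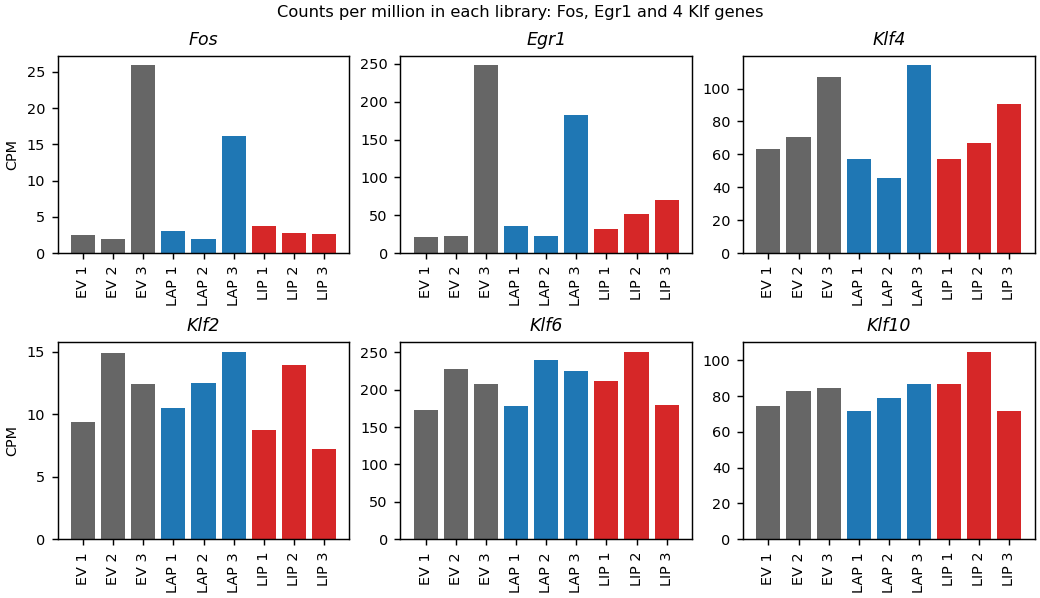
Level of Fos, Egr1, Klf4, Klf2, Klf6 and Klf10 in CPM in each of the 9 libraries, as bars from 0 coloured by group. Fos and Egr1 peak in EV library 3 (25.9 and 248 CPM) and LAP library 3 (16.1 and 183 CPM), Klf4 is highest in library 3 of every group, and Klf2 and Klf6 follow another order.

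Klf6 and Klf10 were the steady high members. Klf6, which is induced by injury and represses Dlk1 during adipogenesis, had 203 ± 27.5 CPM in EV, 214 ± 32.4 CPM in LAP and 214 ± 35.7 CPM in LIP (SD, n = 3), with all libraries between 173 and 251 CPM. Klf10, the TGFβ-inducible early gene that recruits Sin3 corepressors, had 80.7 ± 5.19, 79.1 ± 7.41 and 87.7 ± 16.7 CPM (SD, n = 3), with all libraries between 71.5 and 105 CPM. For both genes the groups overlapped in each comparison and the fitted log2 fold changes lay between -0.04 and 0.17.

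Among the genes that restrain adipogenesis, Klf2, a factor best known from endothelial cells and quiescent T cells, had 300, 404 and 425 counts in EV, 339, 348 and 406 in LAP and 213, 425 and 224 in LIP. LIP libraries 1 and 3 were the lowest of all, but LIP library 2 lay among the EV libraries, and the log2 fold change of LIP against EV was -0.30 ± 0.27 (SE). Klf3, a CtBP-binding repressor like Klf8, ranged only from 55.3 to 80.9 CPM over all libraries, with log2 fold changes of -0.18 ± 0.17, -0.21 ± 0.15 and 0.04 ± 0.21 in LIP against EV, LAP against EV and LIP against LAP. Klf7, a factor of neuronal growth, ranged from 3.77 to 8.71 CPM, with log2 fold changes of 0 ± 0.30, -0.16 ± 0.24 and 0.18 ± 0.33. Klf7 values are uncertain, since 38.2% of the 50-base words of its transcripts also lie in Gm26649, a long non-coding RNA on the opposite strand, and the strand setting of the counting is not given in the sources used here. For Klf3 this share was 3.48%, mostly with the opposite-strand transcript Gm20033.

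Among the genes that promote adipogenesis, Klf5 had 395, 355 and 424 counts in EV, 359, 237 and 313 in LAP and 313, 311 and 233 in LIP. All LAP libraries lay below all EV libraries in CPM, with 12.6 ± 0.436 CPM in EV and 10.4 ± 1.64 CPM in LAP (SD, n = 3), a log2 fold change of -0.29 ± 0.19. LIP overlapped EV, since LIP library 1 reached 12.8 CPM, and the log2 fold change of LIP against EV was -0.31 ± 0.22. Klf9, which responds to glucocorticoid and thyroid hormone, had 28.9 ± 1.78 CPM in EV, 26.1 ± 3.92 CPM in LAP and 31.9 ± 4.87 CPM in LIP (SD, n = 3), and its log2 fold changes of 0.15 ± 0.17, -0.16 ± 0.17 and 0.31 ± 0.23 were all below 2 SE.

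In 4 of the 10 genes the same library number was highest in all 3 groups, beside 26.0% of 11535 genes, and in 1 of the 10 the same number was lowest, beside 24.6%, so neither count is a result about the Klf genes. Klf3 and Klf4 were highest in library 3 of each group, and Klf6 and Klf7 in library 2 of each group. Klf7 was lowest in library 3 of each group. What the numbers share is not stated in the sources used here.

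The other Klf genes and the Sp genes, which bind the same boxes, did not pass the unblocked test in any comparison. Of the other 7 Klf genes, Klf14 was listed at 0 and Klf17 had 2 counts in all, both in LIP, and Klf1, an erythroid factor, had 22 counts in all. Klf11, a close relative of Klf10, had 9.18 ± 1.84 CPM in EV and 12.1 ± 7.01 CPM in LIP, with 613 of its counts in LIP library 2. Klf12, a CtBP-binding repressor like Klf8 and Klf3, had log2 fold changes of -0.08 ± 0.25 in LIP against EV (edgeR adjusted p = 0.934), 0.09 ± 0.22 in LAP against EV (adjusted p = 0.971) and -0.16 ± 0.30 in LIP against LAP (adjusted p = 0.903). Klf13 and Klf16 had log2 fold changes of 0.11 ± 0.15 (adjusted p = 0.795) and 0.09 ± 0.19 (adjusted p = 0.89) in LIP against EV.

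Of the Sp genes, Sp1 was the highest with 163 ± 2.38 CPM in EV, 156 ± 24.1 CPM in LAP and 170 ± 23.9 CPM in LIP (SD, n = 3). Sp3 and Sp6 were low, with 1.67 ± 0.37 and 1.13 ± 0.442 CPM in EV. Sp7, the osteoblast factor osterix, had 262, 167 and 324 counts in EV, 329, 178 and 238 in LAP and 191, 69 and 47 in LIP. LIP libraries 2 and 3 were the lowest, and LIP library 1 lay among the others in CPM, with a log2 fold change of -1.05 ± 0.47 in LIP against EV (edgeR adjusted p = 0.448) and -1.13 ± 0.44 in LIP against LAP (adjusted p = 0.37). With the replicate number as a block, Sp7 was lower in LIP than in LAP by a log2 fold change of -1.40 ± 0.26 (adjusted p = 3.73e-05). Without LIP library 1, Sp7 also passed the unblocked test in both comparisons. At an unadjusted p under 0.05, 0 of the 6 other Klf genes tested and 1 of the 9 Sp genes (Sp7) passed in LIP against EV, as well as in LIP against LAP, and 0 in LAP against EV. With so few genes, 1 of 9 cannot be set apart from the 6.75% and 5.98% of all genes that were lower in these comparisons. DESeq2 and the edgeR exact test gave 0 calls.

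**Figure D4:**
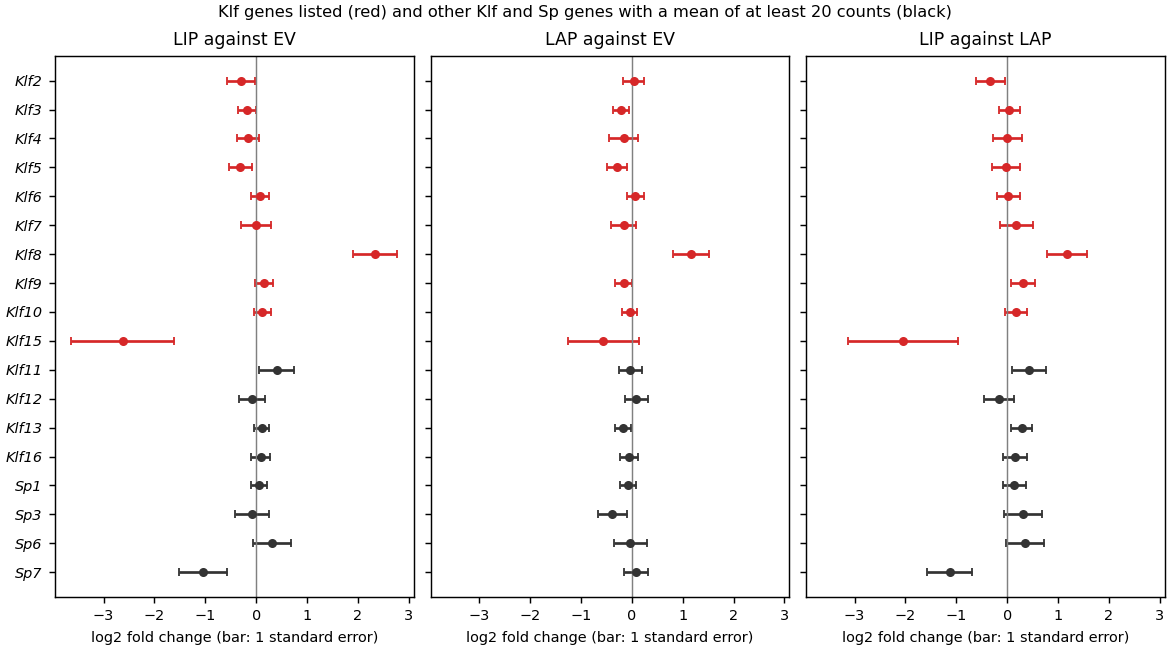
Log2 fold change of the 10 Klf genes (red) and of the other Klf and Sp genes that reached a mean of 20 counts (black) in the 3 comparisons, on a shared axis with bars of 1 SE. Klf8 lies at 2.34, 1.17 and 1.18, Klf15 at -2.62, -0.56 and -2.04 with wide bars, Sp7 at -1.05, 0.08 and -1.13, and the remaining genes within 0.43 of 0.

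The partners and regulators of Kruppel-like factors were read as a list of 22 cofactors and ubiquitin ligases, of which 21 had a count in each comparison. By edgeR's quasi-likelihood test 0 passed in any comparison. Of all genes, 0.396% passed in LIP against EV, 0.0606% in LAP against EV and 1.05% in LIP against LAP. The counts of 0 for the target, early and clock lists below are to be read against the same shares. At an unadjusted p under 0.05, 1 was lower in LIP against EV and 1 in LAP against EV, in both cases Mef2c, a MADS box factor upstream of Klf2 expression in other tissues, and 1 (Trp53) was higher in LIP against LAP. Given the share of all genes at that threshold, 1 of 21 is not a result about the list, and both genes are described only because the rule for naming genes selects the smallest p. Mef2c had 27, 21 and 12 counts in EV, 10, 10 and 3 in LAP and 8, 6 and 1 in LIP, a log2 fold change of -1.84 ± 0.63 in LIP against EV (adjusted p = 0.285) and -1.31 ± 0.48 in LAP against EV (adjusted p = 0.918). Trp53, a partner of KLF4 at the p21 promoter, had a log2 fold change of 0.59 ± 0.28 in LIP against LAP (adjusted p = 0.524), with all LIP libraries above all LAP libraries. The corepressor gene Ctbp1 was listed at 0.

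Of 29 genes known as targets of Kruppel-like factors in other cells, 28 were tested in LIP against EV, 26 in LAP against EV and 27 in LIP against LAP, and 0 passed in each. At an unadjusted p under 0.05, 1 was higher and 8 were lower in LIP against EV, 1 was higher and 1 lower in LAP against EV, and 6 were lower in LIP against LAP, beside 6.75%, 1.34% and 5.98% of all genes that were lower in these comparisons. The median log2 fold change of the list was -0.13, -0.01 and -0.13, beside 0.04, 0.02 and 0.02 for all genes. Pdgfa, a growth factor gene activated by KLF5, had the smallest p in LIP against EV, with 37.9 ± 1.14 CPM in EV, 31.3 ± 4.51 CPM in LAP and 24.7 ± 1.69 CPM in LIP (SD, n = 3). Neither LAP nor LIP overlapped EV, and the log2 fold change of LIP against EV was -0.62 ± 0.15 (edgeR adjusted p = 0.118). DESeq2 and the edgeR exact test called 2 target genes lower in LIP than in EV, Col1a1 and Pdgfa, and 1 higher in LAP than in EV, Mmp9. They called 0 of the cofactor genes and 0 of the early and clock genes described further on. Over all 18203 genes, DESeq2 called 321 and the exact test 301 in LIP against EV. In LAP against EV, DESeq2 called 26 of 18156 genes. The list was not tested as a set, so the calls of Col1a1, Pdgfa and Mmp9 are given as single genes.

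The blocked fit gave further calls in LAP against EV and LIP against LAP, where the library numbers were taken to pair the samples. The labels do not state such pairs. The pairing was inferred from these same counts and did not hold in LIP against EV. In LAP against EV it called 1 target gene, Mmp9, a matrix metalloproteinase, with 72, 55 and 38 counts in EV against 357, 143 and 89 in LAP. Its log2 fold change was 1.75 ± 0.22 with the block (adjusted p = 0.000368) and 1.85 ± 0.39 without it (adjusted p = 0.246). In LIP against LAP the blocked fit called 7 of the 85 genes tested in the cofactor, target, early and clock lists, all lower in LIP. This share of 8.24% over these lists together lay near the 6.51% of all genes. The calls were not spread evenly over the lists. Thbd, S1pr1, Mmp9, Col1a1 and Acta2 were among the 27 target genes tested, and Dbp and Tsc22d3 among the 20 clock and glucocorticoid-responsive genes. The lists were not tested as sets, so the calls are given as single genes. Thbd, the thrombomodulin gene and a target of KLF2, had 680, 260 and 225 counts in LAP against 149, 65 and 10 in LIP, with a log2 fold change of -2.56 ± 0.28 (adjusted p = 2.07e-12), which was -2.18 ± 0.59 without the block (adjusted p = 0.0927). S1pr1, another target of KLF2, and Mmp9 had blocked log2 fold changes of -1.55 ± 0.22 (adjusted p = 2.8e-08) and -2.02 ± 0.28 (adjusted p = 1.34e-08). Col1a1, the smooth muscle actin gene Acta2, the clock output gene Dbp and the glucocorticoid-induced gene Tsc22d3 were the other 4. Of these, Col1a1 is also a fibroblast marker. The 12 fibroblast markers were all negative in LIP against LAP, where 1 (Fap) passed the unblocked test with an adjusted p of 0.0244. With the block, Fap, Thy1, Col1a1, Col1a2, Col3a1, Col5a1, Ddr2, Pdgfra and Pdgfrb passed, while Fn1, S100a4 and Vim did not. The share of all genes in that fit was 6.51%. The part of the fibroblast markers in these values was not tested.

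Of the known targets of KLF8, Cdh1, Ccnd1 and Mmp9 are given here after their values were seen, and 0 of them passed in LIP against EV. Cdh1, the E-cadherin gene that KLF8 represses, had a log2 fold change of -1.10 ± 0.38 in LIP against EV (edgeR adjusted p = 0.292). It had 111, 100 and 90 counts in EV against 32, 24 and 76 in LIP, all lower in CPM. Within LIP, library 3 had the highest level of both Klf8, with 4.65 CPM, and Cdh1, with 2.45 CPM. Ccnd1, the cyclin D1 gene that KLF8 activates, had a log2 fold change of -0.38 ± 0.24 (adjusted p = 0.641) and Mmp9 one of 0.08 ± 0.60 (adjusted p = 0.986). Another gene of the target list, Mmp14, is also given after its values were seen. In LIP against EV it had a log2 fold change of -0.62 ± 0.19 (edgeR adjusted p = 0.234), with all LIP libraries below all EV libraries.

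**Figure D5:**
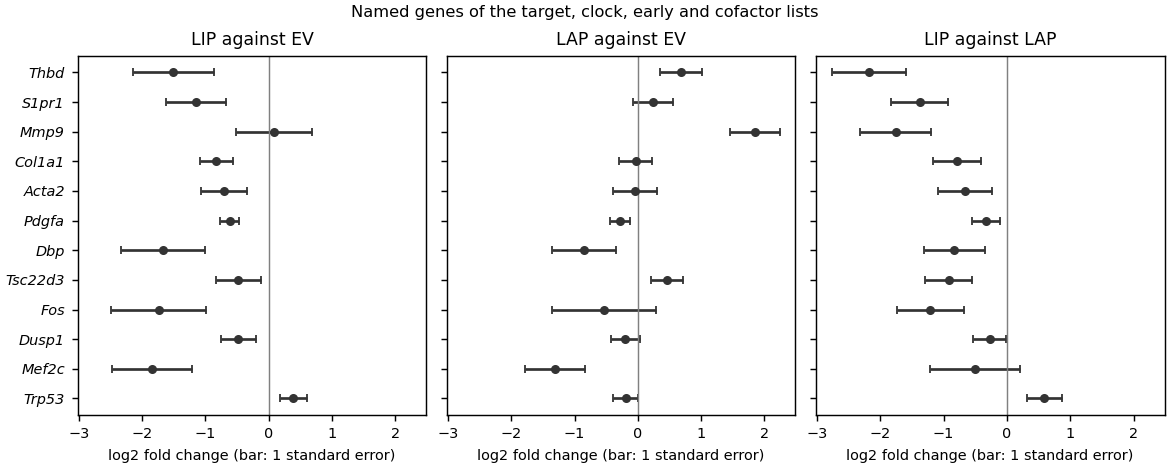
Log2 fold change with bars of 1 SE of 12 genes of the cofactor, target, early and clock lists in the 3 comparisons, from the fit without the block, on a shared axis. Thbd, S1pr1 and Mmp9 lie at -2.18, -1.38 and -1.76 in LIP against LAP, while Mmp9 lies at 1.85 in LAP against EV.

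Of 18 immediate early genes, 17 were tested and 0 passed in any comparison. At an unadjusted p under 0.05, 1 of 17 genes (Fos) was lower in LIP against EV and in LIP against LAP, near the share of all genes. Fos had a log2 fold change of -1.74 ± 0.75 in LIP against EV (edgeR adjusted p = 0.418), with 884 counts in EV library 3 against 81 and 52 in EV libraries 1 and 2, and Dusp1 had the smallest p in LAP against EV with -0.20 ± 0.23 (adjusted p = 0.931). Of 20 clock and glucocorticoid-responsive genes, read beside Klf9 and Klf10, all 20 were tested and 0 passed without the block. At an unadjusted p under 0.05, 2 of 20 were lower in LIP against EV and 1 of 20 in LIP against LAP, close to the 6.75% and 5.98% of all genes. Dbp had 40, 74 and 301 counts in EV, 65, 51 and 91 in LAP and 20, 16 and 82 in LIP, so library 3 was highest in each group, and its log2 fold change in LIP against EV was -1.67 ± 0.67 (adjusted p = 0.38). Tsc22d3 had a log2 fold change of -0.92 ± 0.37 in LIP against LAP (adjusted p = 0.384), and -0.98 ± 0.29 with the block (adjusted p = 0.0228).

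The genes whose log2 CPM followed that of Klf8 most closely over the 9 libraries, out of 10251 genes that reached a mean of 50 counts, were Ddx5 with a Pearson's r of 0.957, Hecw1 with 0.938, 0610010F05Rik with 0.922, Cradd with 0.914 and Cxxc4 with 0.911. The 9 points share libraries and groups, so these r are a description. Hecw1, a ubiquitin ligase gene, had 22.0 ± 5.0 CPM in EV, 26.1 ± 1.05 CPM in LAP and 50.8 ± 14.8 CPM in LIP (SD, n = 3). Cxxc4 had 2.21 ± 0.145, 2.75 ± 0.329 and 4.36 ± 1.74 CPM in the same order, whereas the RNA helicase gene Ddx5 had 1250 ± 28.2, 1340 ± 48.5 and 1390 ± 49.4 CPM. Among the other Klf genes, r with Klf8 lay between -0.752 (Klf5) and 0.394 (Klf9). For Klf15 the closest genes were Dhrs3 with 0.939, Lxn and Trps1 with 0.93 each, Adamts2 with 0.924 and Prelp with 0.918. These rest on 0 to 14 counts of Klf15 per library.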

How the data were processed

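The authors deposited raw counts, the number of reads assigned to each of 23337 gene symbols in 9 libraries, without normalization. Per the submitters' processing notes, bcl2fastq 1.8.3, TopHat 1.4.1 and HTSeq 0.5.4 were used. The notes name GRCh38 and mm10. The former is a human build, and mm10 is the mouse build GRCm38 used for positions here. RNA libraries were made with a TruSeq v2 kit. The strand setting and the handling of reads with several alignments are not given in the sources used here, so a gene and its antisense partner cannot be separated. Totals per library were 24839139 to 33522082 counts.

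Groups were compared in pairs, on 6 libraries and on genes with at least 1 count there. Counts were scaled by TMM and tested by the quasi-likelihood method of edgeR 4.0.16 in R 4.3.3, with Benjamini-Hochberg adjustment over all genes and a threshold of 0.05. The SE was derived from the log2 fold change and its F value. The script was tested on simulated data. CPM are TMM-scaled over all 9 libraries and given as mean ± SD. Exon lengths were taken from GENCODE vM21, and promoters, positions and transcript numbers from RefSeq (GRCm38.p6). Intervals of count ratios are exact (Clopper-Pearson) at 95%, on total counts. Figures were drawn with matplotlib 3.10.9.

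The Klf genes, the gene lists and the tests were chosen with earlier results of these data known. Named were the 10 genes, every other Klf and Sp gene (with values from a mean of 20 counts), in each further list the genes past the threshold or otherwise the gene with the smallest p, and the 5 genes most alike to Klf8 and to Klf15. Genes named outside this rule are marked in the text or are markers and neighbours.

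The labels number the libraries 1 to 3 in each group. Pairs were taken to hold where the deviations of same-numbered libraries from their group means correlated with r over 0.1 in all 3 pairs. This was so in LAP against EV (0.21 to 0.532) and LIP against LAP (0.418 to 0.563), but not in LIP against EV (-0.131 to 0.29). As alternatives, DESeq2 1.42.0 and the edgeR exact test were run, as were other scalings and filters, robust estimation, a single model of all libraries, the block, each library left out in turn and an adjusted p under 0.01.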

Additional observations from a re-analysis of the deposited data

How the results depend on the processing

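The log2 fold change of Klf8 kept its sign under every alternative run, with 2.05 to 2.67 in LIP against EV, 0.93 to 1.49 in LAP against EV and 0.88 to 1.5 in LIP against LAP. Its call in LIP against EV did not, as 0 Klf genes passed with robust estimation, with scaling by total counts only, with a minimum of 10 counts in every library, with filterByExpr or an adjusted p under 0.01, and 0 to 1 without each library in turn. The cause was not tested. Over all genes, 72 calls became 321 with DESeq2, 301 with the exact test, 36 with total counts only, 29 with robust estimation, 4 with filterByExpr and 0 with the minimum of 10 counts. Klf15 is limited by its depth of 39 counts in all.

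With the replicate number as a block, whose pairing did not hold in LIP against EV, 467 genes passed there and 1 of them was a Klf gene. The blocked fit called 3 genes of the cofactor, target, early and clock lists in LIP against EV (Dbp, S1pr1 and Thbd), 1 in LAP against EV and 7 in LIP against LAP, where it also called 1 of the 10 Klf genes and 1 other Klf or Sp gene (Sp7). DESeq2 and the exact test each called 2 genes of these lists in LIP against EV and 1 in LAP against EV. Without each library in turn, these lists had 0 to 3, 0 to 1 and 0 to 4 calls in LIP against EV, LAP against EV and LIP against LAP. The 3 without LIP library 3 were Cdh1, Dbp and Fosl1, the 1 without LIP library 1 was Acta2, the 1 without EV library 1 or LAP library 3 was Mmp9, and the 4 without LIP library 3 in LIP against LAP were Dbp, Mmp9, Thbd and Tsc22d3. The other Klf and Sp genes had 0 to 1 calls in LIP against EV and 0 to 1 in LIP against LAP, the 1 being Sp7 without LIP library 1. Of the 5 genes most alike to Klf8, 3 were shared with total counts only. In groups of 3 libraries no single library can be tested as an outlier.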
